A study of Mus musculus with 10 samples.

Results

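Open chromatin was compared between the day 6 thymic epithelial fractions labelled mTEC4 and mTEC1, with 2 libraries each, by the presence of called peaks. The 4 deposited lists hold 70144 and 71192 peaks for mTEC4 and 82281 and 71327 for mTEC1, out of 882163 peaks in the 10 lists of the series. Peaks that overlapped or touched were merged into 198925 regions, of 351411 when all 10 lists were merged. A region called in both lists of one fraction and in neither of the other is called mTEC4-only or mTEC1-only here. There were 4213 mTEC4-only regions and 5472 mTEC1-only regions, 2.12% and 2.75% of the regions merged over the 4 lists.

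The series profiled accessible chromatin by ATAC-seq, an assay that tags open DNA with a transposase, in the epithelium of wild-type C57BL/6 thymi at embryonic days 15 (E15) and 17 (E17) and in 3 day 6 fractions, mTEC4, mTEC1 and mTEC2. All 10 libraries came from thymi digested with Liberase TH and DNase, from which thymic epithelial cells (TEC) were sorted, and both fractions compared here are wild type, C57BL/6 and day 6. The labels spell out neither the fraction names nor the sort gates, and peak names inside the files tag the mTEC4 lists as aTEC and the mTEC1 lists as eTEC. The labels also do not say whether libraries 1 and 2 of a fraction came from separate animals, so the spread between them may be technical.

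Medullary TEC display tissue antigens to developing T cells and attract them into the medulla. In a published single-cell classification, mTEC I are the Ccl21a-expressing cells, mTEC II the cells that make the transcriptional regulator Aire, and mTEC IV the thymic tuft cells, which resemble the chemosensory tuft cells of gut and airway. Tuft cells use the taste transduction cascade and depend on the transcription factor Pou2f3, while Ccl21a-expressing medullary TEC depend on lymphotoxin signalling through the non-canonical NF-kB pathway. Whether the fraction labels follow that classification is not stated, so genes of both programmes were examined at the regions of both fractions.

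The promoters below show fraction-specific regions at gene starts: those of a pair of tuft genes in an mTEC4-only region, and those of Ccl21a and the thymic stromal gene Dll4 in an mTEC1-only region. Each window runs from 250 bases before to 50 bases after the start in the RefSeq promoter table of GRCm38.p6 (mm10), on the gene's own strand, 5′ to 3′. Capitals mark the bases inside the called region.
Avil, chr10:127000459-127000758, + strand: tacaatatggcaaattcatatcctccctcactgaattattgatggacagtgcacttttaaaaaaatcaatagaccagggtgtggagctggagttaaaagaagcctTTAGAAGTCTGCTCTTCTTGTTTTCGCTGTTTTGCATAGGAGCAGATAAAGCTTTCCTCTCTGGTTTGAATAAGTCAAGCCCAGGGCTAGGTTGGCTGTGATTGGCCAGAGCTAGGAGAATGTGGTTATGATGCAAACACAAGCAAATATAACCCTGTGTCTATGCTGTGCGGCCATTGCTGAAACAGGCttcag
Plcb2, chr2:118728389-118728688, − strand: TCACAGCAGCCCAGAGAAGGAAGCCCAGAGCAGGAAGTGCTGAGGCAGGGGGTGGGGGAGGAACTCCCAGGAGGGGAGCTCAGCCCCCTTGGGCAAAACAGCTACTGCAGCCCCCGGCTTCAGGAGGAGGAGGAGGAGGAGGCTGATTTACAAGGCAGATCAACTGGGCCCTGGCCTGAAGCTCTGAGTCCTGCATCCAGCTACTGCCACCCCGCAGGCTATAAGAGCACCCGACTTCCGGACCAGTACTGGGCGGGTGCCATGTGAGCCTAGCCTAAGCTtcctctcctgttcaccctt
Ccl21a, chr4:42773942-42774241, − strand: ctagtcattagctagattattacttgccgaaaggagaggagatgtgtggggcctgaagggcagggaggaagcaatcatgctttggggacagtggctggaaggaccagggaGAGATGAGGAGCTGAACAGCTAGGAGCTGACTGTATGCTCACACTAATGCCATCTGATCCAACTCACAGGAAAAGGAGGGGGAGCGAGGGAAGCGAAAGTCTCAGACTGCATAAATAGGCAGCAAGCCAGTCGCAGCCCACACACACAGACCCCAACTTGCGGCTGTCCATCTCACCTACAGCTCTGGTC
Dll4, chr2:119325534-119325833, + strand: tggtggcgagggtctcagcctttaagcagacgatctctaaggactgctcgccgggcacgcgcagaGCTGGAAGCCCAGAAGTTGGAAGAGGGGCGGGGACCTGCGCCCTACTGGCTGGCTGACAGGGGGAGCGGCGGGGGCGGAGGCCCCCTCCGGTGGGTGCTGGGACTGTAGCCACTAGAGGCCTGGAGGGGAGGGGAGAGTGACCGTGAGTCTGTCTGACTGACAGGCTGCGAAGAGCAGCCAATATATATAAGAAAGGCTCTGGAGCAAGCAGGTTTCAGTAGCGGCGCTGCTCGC

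Avil encodes advillin, an actin-binding protein of tuft cells, and 190 of its 300 bases lay in the mTEC4-only region at 127000564 to 127000753 of chromosome 10. Plcb2 encodes the phospholipase C of taste transduction, and 281 bases lay in the mTEC4-only region at 118728408 to 118728887 of chromosome 2. Ccl21a encodes the chemokine that draws thymocytes to the medulla, and 190 bases lay in the mTEC1-only region at 42773775 to 42774131 of chromosome 4. Dll4 encodes the Notch ligand that commits progenitors to the T lineage, and 235 bases lay in the mTEC1-only region at 119325599 to 119325836 of chromosome 2.

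Letters of 6 motifs were searched on both strands of these windows. They were the octamer ATGCAAAT, the AP-1 site TGANTCA, the NF-kB site GGGANTTCC, the GC box GGGCGG, the E-box CANNTG and the TATA box TATAAA. The Plcb2 window held an NF-kB match at bases 60 to 68, a GC box and 2 E-boxes, all inside the called region. Dll4 held 2 GC boxes and Ccl21a 1 E-box, and the Avil window held no match to any of the 6. Of all 32817 promoter windows, 1.74% held the octamer, 7.81% AP-1, 1.68% the NF-kB letters, 35.6% a GC box, 72.3% an E-box and 13.6% the TATA box.

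Few of the regions that separated the fractions lay at promoters. mTEC4-only regions touched 124 promoter windows, 0.378% of all windows, and mTEC1-only regions touched 232, or 0.707%. The octamer was in 2.42% of the 124 windows and 2.16% of the 232. The NF-kB letters were in 2.42% and 2.16%, in the same order. A GC box was in 57.3% and 52.6%, against 74.6% of the 8452 windows touched by a region called in all 4 lists.

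Across the series, lists held from 40858 to 151646 peaks, and the 4 lists compared here had fewer strong peaks, by their caller's own values, than the embryonic ones. A −log10 q of 5 or more was reached by 6.33% and 12.4% of the peaks in the mTEC4 lists and 8.91% and 11.6% in the mTEC1 lists, against 41.7% to 48.8% in the 4 embryonic lists. The median peak width was 114 and 115 bp for mTEC4 and 135 and 115 bp for mTEC1. The share of peaks within 1 kb of a gene end was 13.2% and 17.1% for mTEC4 and 12.8% and 17.5% for mTEC1, so library 2 was the higher in both fractions. Of the 4 measures, the number of peaks alone did not overlap between the fractions. Its exact two-sided permutation p was 0.333, the smallest that 2 against 2 libraries can give, and every Benjamini-Hochberg adjusted value over the 4 measures was 1.

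Lists of one fraction overlapped, on average, no more than lists of different fractions. Sharing was measured as base pairs covered by both lists as a percent of those covered by either. The mTEC4 lists shared 17.4% and the mTEC1 lists 17.6%. Lists of different fractions shared 17.7% (libraries numbered 1), 20.8% (libraries numbered 2), 14.6% (mTEC4 1 with mTEC1 2) and 18.7% (mTEC4 2 with mTEC1 1). The mean within a fraction minus the mean between fractions was −0.454 percentage points, and −0.317 at equal list length. Without mTEC4 library 2 the sign turned, to 1.45.

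Counts of regions called in exactly 2 lists showed the same order. By fraction there were 9685 such regions in all. Pairing libraries of the same number gave 12827, of which 7456 were called in the libraries numbered 1 and 5371 in those numbered 2. The crossed pairing gave 7556, of which 2410 were called in mTEC4 1 and mTEC1 2 and 5146 in mTEC4 2 and mTEC1 1. The fraction pairing therefore lay between the other 2.

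Cutting each list to the length of the shortest, 70144 peaks by column 9 (−log10 q), moved the weight between the fractions but not this order. mTEC4-only regions numbered 4487, or 2.37% of 189121 merged regions, and mTEC1-only regions 4743, or 2.51%. The fraction pairing then totalled 9230, against 11865 by number and 6894 crossed. Of the deposited mTEC4-only regions, 4141 (98.3%) kept their pattern at equal length, and of the mTEC1-only regions 4716 (86.2%) did. The cut removed 12137 peaks from mTEC1 library 1, all at a −log10 q of 1.55 or less. It removed 1183 from mTEC1 library 2 and 1048 from mTEC4 library 2.

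**Figure D1:**
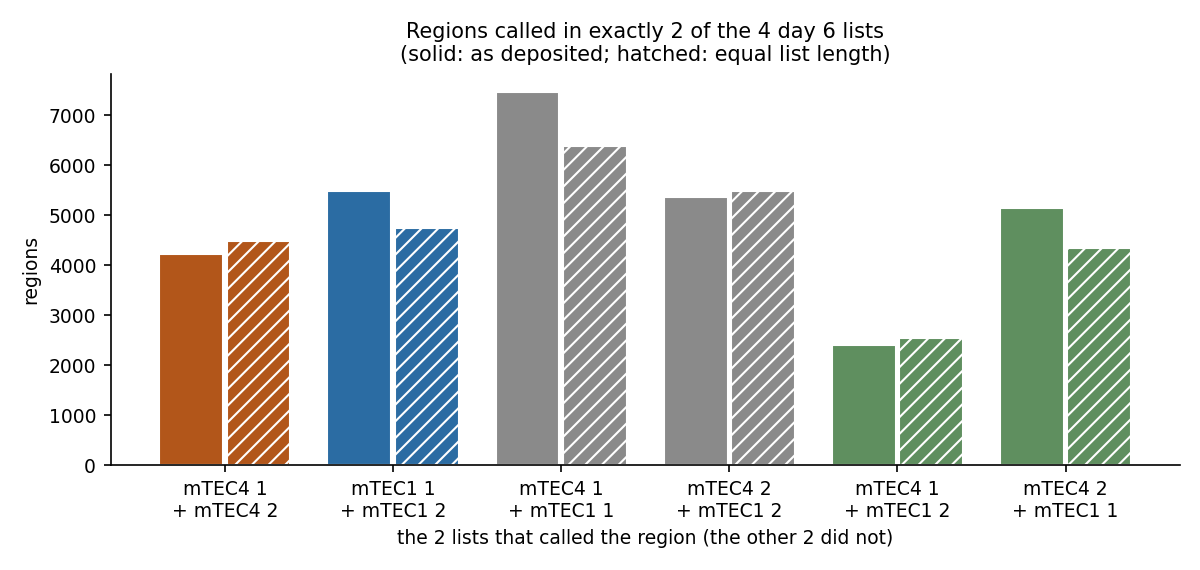
Number of merged regions (vertical axis) called in exactly the 2 lists named below each pair of bars and in neither of the other 2, as deposited (solid) and with every list at 70144 peaks (hatched). Same-fraction pairs (orange, mTEC4; blue, mTEC1) reach 4213 and 5472 as deposited, below the 7456 regions shared by the libraries numbered 1.

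Regions of one fraction were narrower and less often at promoters than those called in all 4 lists. Their median width was 223 bp for mTEC4-only and 216 bp for mTEC1-only, against 407 bp for the 12837 regions called in all 4 lists, 168 to 280 bp for the other pairs of lists and 98 bp for regions called in 1 list. The median −log10 q in the fraction's own lists was 1.62 and 1.57 for mTEC4-only regions and 2.03 and 1.83 for mTEC1-only regions. A −log10 q of at least 5 in both lists was reached by 26 mTEC4-only and 29 mTEC1-only regions. Promoter windows were touched by 2.66% of mTEC4-only and 3.82% of mTEC1-only regions, against 6419 of the 12837 called in all 4 lists, 0.255% of those of the libraries numbered 1 and 11.2% of those of the libraries numbered 2. Inside gene spans lay 31.9% and 34.8% of the mTEC4-only and mTEC1-only regions, against 19.1% of those called in all 4 lists. Neither inside a gene nor within 1 kb of its ends lay 63.2% and 58.6%, against 24.0% of those called in all 4 lists and 63.1% of those called in 1.

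The strongest regions of each fraction, ranked within their own lists and also specific at equal length, lay mainly in intergenic sequence. So did 63.2% of all mTEC4-only and 58.6% of all mTEC1-only regions. The leading mTEC4-only region (chr11:39660720-39660922) had −log10 q values of 7.34 and 11.0 and lay 1018392 bp from the nearest protein-coding gene, Mat2b, which encodes a regulatory subunit of methionine adenosyltransferase. The next lay 926525 bp from Bcl11a, a transcription factor gene (7.003 and 12.5). The leading mTEC1-only region (chr19:3205657-3205806) reached 44.2 and 17.6 and lay 53270 bp from Ighmbp2, a helicase gene. Another stood inside Pds5b, a cohesin regulator (chr5:150759185-150759426, 10.8 and 7.49), and was called in all 6 lists outside the comparison. Of the 10 leading regions of each fraction, none lay within 1 kb of a gene end, where 4.87% of all mTEC4-only and 6.63% of all mTEC1-only regions did.

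Calls in the 6 lists that took no part in the definition differed between the 2 kinds of region. mTEC4-only regions had a peak in 16.0% and 16.0% of cases in the E15 lists, 14.5% and 17.6% in the E17 lists, and 22.5% and 6.86% in the mTEC2 lists. mTEC1-only regions had one in 45.2% and 45.6%, 43.2% and 46.6%, and 54.1% and 28.0%. The share was higher for mTEC1-only regions in each of the 6 lists, with means of 15.6% and 43.8%. All 4 embryonic lists called 12.0% of mTEC4-only and 40.0% of mTEC1-only regions, and 66.2% and 35.4% were called in none of the 6.

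Library number separated these shares further than the fraction did. Regions called only in the libraries numbered 1 had an embryonic peak in 3.37% to 4.39% of cases, and regions called only in those numbered 2 in 68.0% to 74.2%. For the crossed pairs the embryonic shares were 25.2% to 28.5% (mTEC4 1 with mTEC1 2) and 15.2% to 17.0% (mTEC4 2 with mTEC1 1). The fraction difference was 28.2 percentage points. With mTEC1 library 2 left out it was −21.9, and with mTEC4 library 2 left out it was 52.1. Leaving out a library lets a single list define the regions of its fraction, and regions called in 1 list had a mean share of 13.3%. This holds for either library of a fraction, and the sign reversed in 1 setting only, that without mTEC1 library 2. Whether the shifts follow the library left out or the looser definition was not tested. At equal list length the means were 15.7% and 47.6%.

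**Figure D2:**
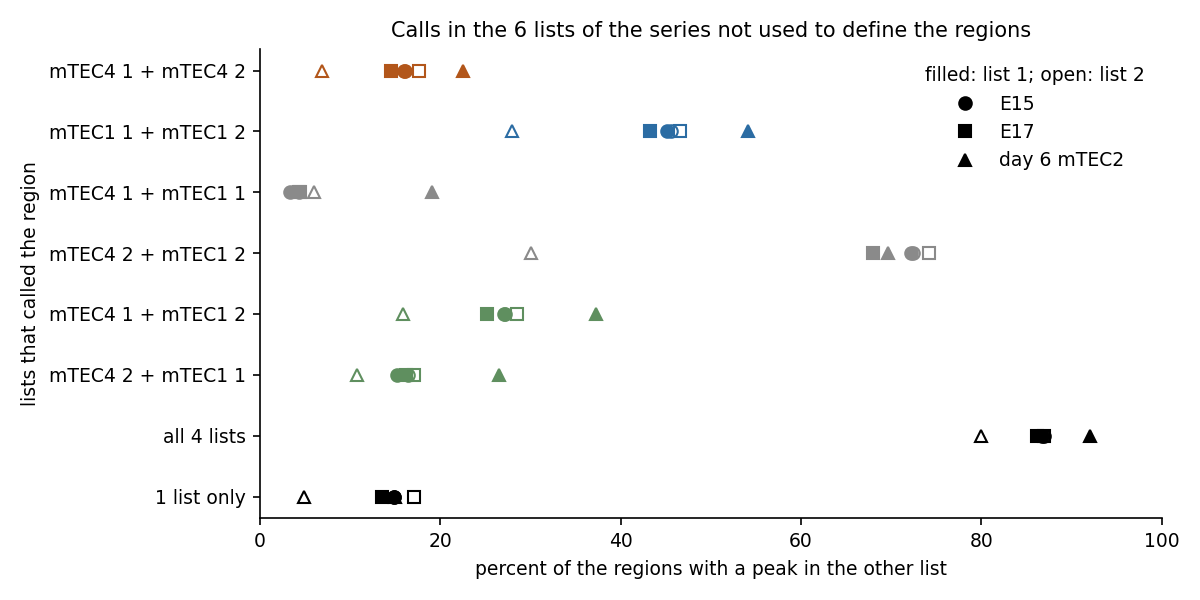
Percent of the regions of each kind (rows, named by the lists that called them) that had a peak in each of the 6 other lists of the series (horizontal axis, 0 to 100%). Circles are E15, squares E17 and triangles mTEC2, filled for list 1 and open for list 2. mTEC1-only regions sit right of mTEC4-only regions in every list, and regions of the libraries numbered 1 and 2 lie at both extremes among pairs of lists in the embryonic lists.

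Genes of 15 lists were then examined, each gene taken with its RefSeq span and 10 kb on each side. Of all 21887 protein-coding genes, 9.34% had an mTEC4-only region and 13.3% an mTEC1-only region. Tuft cell genes carried mTEC4-only regions at 10 of 29 genes (34.5%) and mTEC1-only regions at 2. NF-kB pathway genes carried mTEC1-only regions at 7 of 16 (43.8%) and an mTEC4-only region at 1, Traf1. Thymocyte and T cell genes carried mTEC1-only regions at 9 of 20 (45.0%) and mTEC4-only regions at 2, Ptprc and Themis. These are counts read beside the share over all genes, without a test or an adjustment for gene length. Median spans were 23.1 kb for tuft, 24.5 kb for NF-kB and 17.8 kb for T cell genes, against 17.2 kb for all genes. As bulk libraries, they do not tell fewer cells of a kind from fewer insertions per cell.

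**Figure D3:**
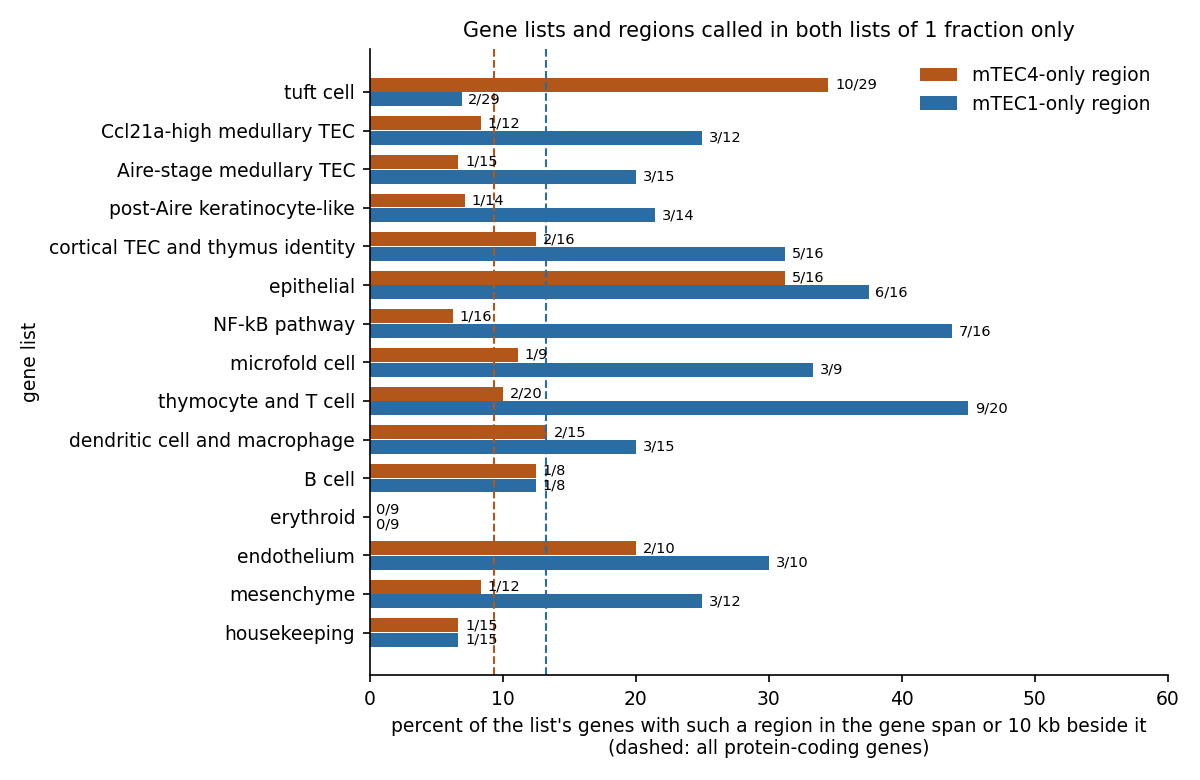
Percent of the genes of each list (horizontal axis) with at least 1 mTEC4-only (orange) or mTEC1-only (blue) region in the gene span or within 10 kb of it, with the counts at the bar ends. Dashed lines give the share of all protein-coding genes, 9.34% and 13.3%. Tuft cell genes reach 34.5% for mTEC4-only regions, and NF-kB and T cell genes reach 43.8% and 45.0% for mTEC1-only regions. Epithelial genes reach 31.25% for mTEC4-only and 37.5% for mTEC1-only regions.

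The 10 tuft genes included some members of the transduction cascade, its outputs and its regulators. Others on the list, among them Trpm5, Gng13, Tas1r3, Pou2f3, Sox9, Hmx2 and Hmx3, had no mTEC4-only region. Of the receptor-proximal G protein, Gnb3, the beta subunit, had 2 mTEC4-only regions and Gnat3, the alpha subunit gustducin, had 1. Regions at Gnb3 numbered 5 and 5 in the mTEC4 lists and 2 and 3 in the mTEC1 lists. Regions at Gnat3 numbered 3 and 5 against 1 and 0. At both genes each mTEC4 list held more regions than either mTEC1 list.

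The Gnb3 pair lay at its end of higher coordinate, with −log10 q values of 1.59 and 3.48 (chr6:124840009-124840142) and of 1.32 and 3.06 (chr6:124840870-124841083). These were called in 4 and 2 of the 4 embryonic lists. The Gnat3 region (chr5:17961235-17961458) was centred at −1224 bp from the gene's start, had values of 1.26 and 1.34, and was called in none of them. The Plcb2 start region reached 1.69 and 1.73, and no list outside the mTEC4 pair called it. Regions at Plcb2 as a whole did not separate the fractions, at 3 and 3 in the mTEC4 lists and 2 and 4 in the mTEC1 lists.

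Trpm5, the cation channel that ends the cascade, had no region specific to either fraction, with 1 and 2 regions in the mTEC4 lists and 2 and 3 in the mTEC1 lists. Of the 4 lists compared, mTEC4 library 2 alone had a peak just before its start, at a −log10 q of 1.18, and all 4 embryonic lists and 1 mTEC2 list also called it. Pou2f3, the tuft master regulator, had no mTEC4-only region. It had an mTEC1-only region (chr9:43210412-43210663) at 3.25 and 1.76, which all 4 embryonic and both mTEC2 lists also called. Its regions numbered 0 and 6 in the mTEC4 lists and 3 and 5 in the mTEC1 lists, so the mTEC4 libraries spanned both mTEC1 values.

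Among effector and structural genes, Avil had 3 and 6 regions in the mTEC4 lists and 2 and 2 in the mTEC1 lists, and its start region printed above had −log10 q values of 1.84 and 1.18. Chat, which makes acetylcholine, had 4 and 4 against 1 and 2, with an mTEC4-only region inside the gene at 1.8 and 1.18. Il25, the cytokine that tuft cells use to activate innate lymphoid cells, had an mTEC4-only region 1022 bp outside its span at 1.51 and 3.49. Alox5ap, needed for leukotriene synthesis, had mTEC4-only regions at 1.32 and 2.14 and at 1.33 and 1.58, and also an mTEC1-only region at 1.65 and 2.01. The same gene thus entered both counts.

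Among regulators and markers, Dclk1, a kinase gene widely used as a tuft marker, had an mTEC4-only region inside its span (chr3:55501436-55501696) at 3.07 and 2.20. Over the whole gene Dclk1 regions numbered 5 and 4 in the mTEC4 lists and 2 and 9 in the mTEC1 lists. Gfi1b, a zinc finger transcription factor of tuft and erythroid cells, had 5 and 3 against 1 and 2, and its mTEC4-only region was at 1.26 and 3.65. Ascl2, a helix-loop-helix factor, had its mTEC4-only region at 1.30 and 1.18.

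Counting regions per gene, 6 of the 29 tuft genes had more regions in each mTEC4 list than in either mTEC1 list, and 0 the reverse, where all protein-coding genes gave 4.53% and 8.65%. The 6 were Gnb3, Gnat3, Avil, Chat, Gfi1b and Hmx2, a homeobox gene. All 12 mTEC4-only regions at tuft genes kept their pattern at equal list length, as did 98.3% of all mTEC4-only regions. The −log10 q values of the 12 ran only from 1.18 to 3.65. With a −log10 q of at least 2 required, Dclk1 was the 1 tuft gene left, where all genes gave 3.13%. With each list cut to its 20000 strongest peaks there were 0, where all genes gave 3.46%. In the embryonic lists, 9 of the 12 regions were called nowhere, near the 78.4% of all mTEC4-only regions without an embryonic peak.

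The other pairings of the lists gave tuft genes fewer regions. The libraries numbered 1 shared a specific region at 1 of 29 genes, where all genes gave 11.2%, and those numbered 2 at 4, where all genes gave 17.9%. The crossed pairs gave 4, against 5.95% of all genes, and 5, against 10.5%. At equal list length the mTEC4-only count stayed at 10, against 9.82% of all genes, and the mTEC1-only count at 2, against 12.2%.

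At NF-kB pathway genes, 7 of 16 had an mTEC1-only region and Traf1, a receptor adaptor gene, had the 1 mTEC4-only region. No mTEC1-only region lay at Relb, Nfkb2, Rel, Rela, Traf1, Traf2, Traf3, Traf6 or Ikbkb. Regions at Relb numbered 2 and 4 in the mTEC4 lists and 4 and 4 in the mTEC1 lists, and those at Nfkb2 2 and 3 against 3 and 3. Ltbr, the lymphotoxin beta receptor, had 2 mTEC1-only regions, at −log10 q values of 1.88 and 4.69 (chr6:125304894-125305005) and 1.65 and 2.14 (chr6:125319091-125319506). Its ligand gene Ltb had 1, at 2.86 and 2.09, which lay 4228 bp outside the gene span. Regions at Ltb numbered 1 and 1 in the mTEC4 lists and 3 and 3 in the mTEC1 lists, and those at Ltbr 2 and 2 against 3 and 3. Counting regions per gene, 3 of the 16 genes had more regions in each mTEC1 list than in either mTEC4 list, where all genes gave 8.65%. The reverse held for 1, where all genes gave 4.53%: Traf1, with 4 and 4 in the mTEC4 lists and 3 and 1 in the mTEC1 lists.

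Downstream, Map3k14, which encodes the NF-kB-inducing kinase NIK, had an mTEC1-only region inside the gene at 1.72 and 2.36, and regions there numbered 1 and 2 in the mTEC4 lists and 4 and 7 in the mTEC1 lists. Chuk, the kinase IKK alpha that NIK activates, had one at 3.61 and 1.30. Birc3, an inhibitor of apoptosis that restrains NIK, had one at 2.94 and 2.61. Nfkb1, the p105 subunit gene, had one at 2.57 and 1.90, and Nfkbia, which encodes the inhibitor IkB alpha, had one at 3.61 and 2.69. Nfkbia regions numbered 4 and 3 against 4 and 4, and its start was called in all 4 lists.

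Of the 8 mTEC1-only regions at these genes, all 8 kept their pattern at equal length, 4 were called in all 4 embryonic lists and 7 in an mTEC2 list. Of all mTEC1-only regions, 86.2% kept their pattern and 40.0% were called in all 4 embryonic lists. The mTEC2 lists 1 and 2 called 54.1% and 28.0% of them. The gene count stayed at 7 at equal length, where all genes gave 12.2%. It was 4 with a −log10 q of at least 2 (9.15% of all genes) and 1 with the 20000 strongest peaks per list (4.19%). The libraries numbered 1 shared a specific region at 1 NF-kB gene, where all genes gave 11.2%, and those numbered 2 at 1, where all genes gave 17.9%. The crossed pairs gave 0, against 5.95% of all genes, and 1, against 10.5%.

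**Figure D4:**
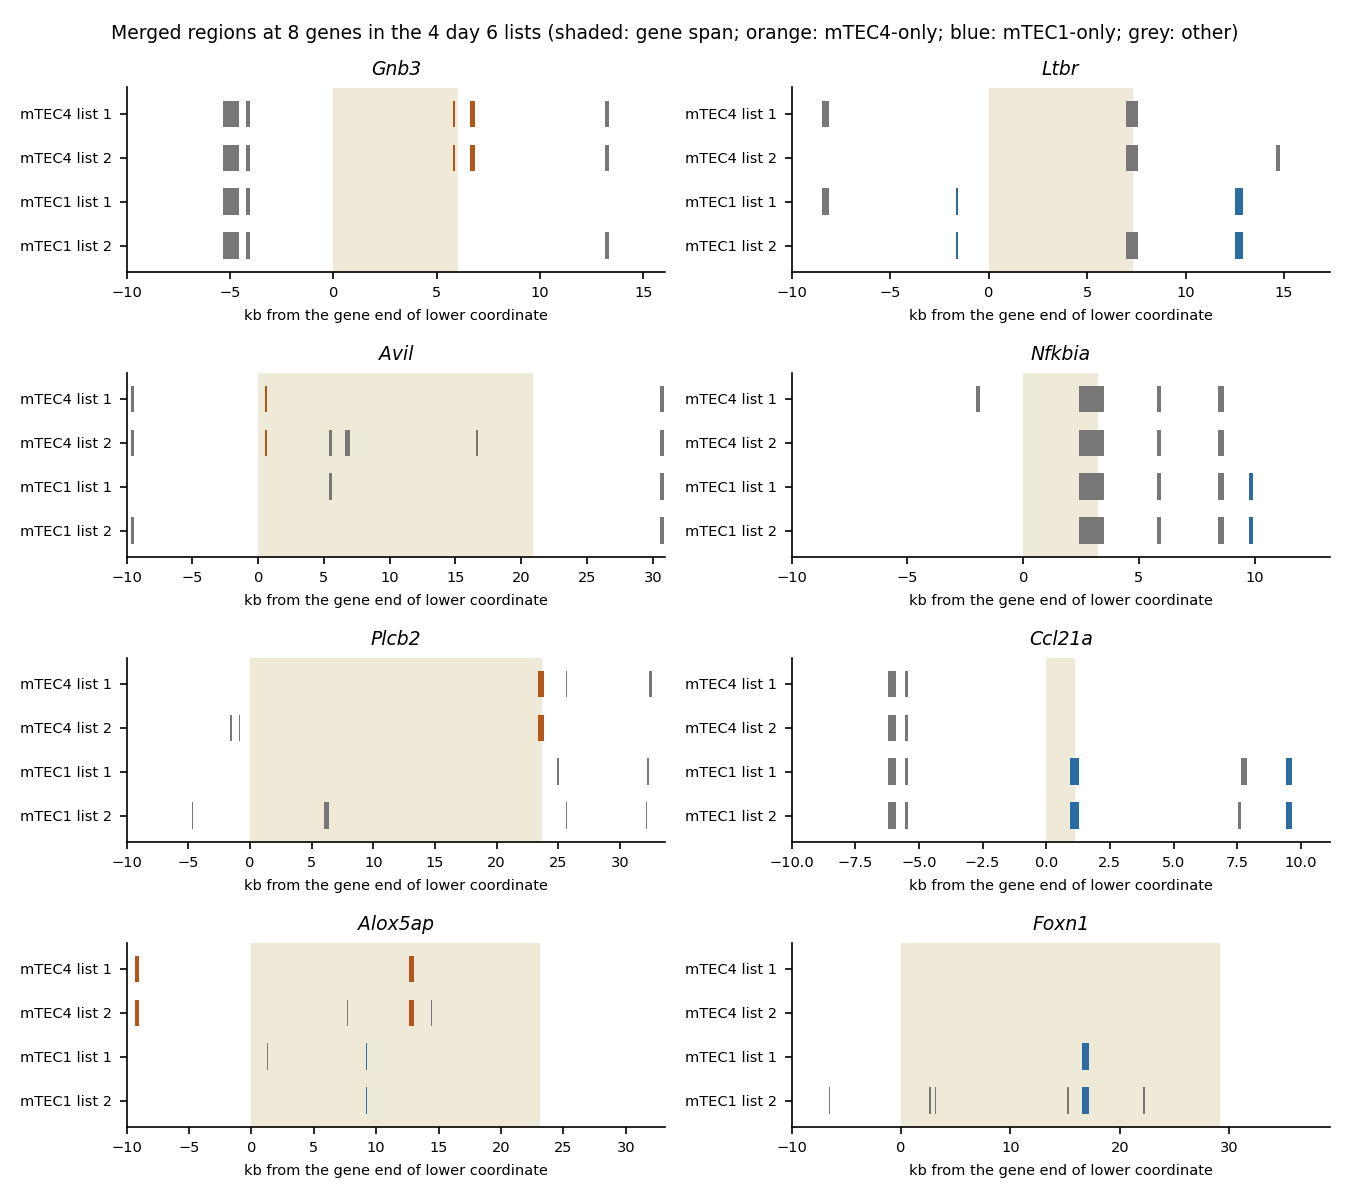
Merged regions in the 4 lists (rows) at 4 tuft genes (left) and at Ltbr, Nfkbia, Ccl21a and Foxn1 (right). The horizontal axis is the distance in kb from the gene end of lower coordinate, shading is the gene span, orange marks mTEC4-only, blue mTEC1-only and grey all other regions. The rows show the orange regions in both mTEC4 lists alone and the absence of any region at Foxn1 in the mTEC4 lists.

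Genes of the Ccl21a-expressing programme had mTEC1-only regions at 3 of 12 genes, Ccl21a, Pdpn and Apoe, where all genes gave 13.3%. They had an mTEC4-only region at 1, the integrin gene Itga6 (1.71 and 4.22), where all genes gave 9.34%. Ccl21a had 2 and 2 regions in the mTEC4 lists and 5 and 5 in the mTEC1 lists. Its start region reached −log10 q values of 2.21 and 1.93 and was called in 3 of 4 embryonic lists and in neither mTEC2 list. A further mTEC1-only region lay 8276 bp outside the gene, at 1.65 and 1.88. Pdpn, the membrane glycoprotein podoplanin, had one at 1.93 and 5.66, and Apoe, the lipid carrier, one at 1.95 and 5.41.

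Ccl21a calls are uncertain, because near-identical copies lie on the same chromosome and read placement among them is not given. Of the 281 overlapping 20-base words in the promoter window of the copy Ccl21d, 240 also occurred in the Ccl21a window. The windows of Gm13304 and Gm10591 shared 238 each. At these copies mTEC1 library 2 had a peak and mTEC1 library 1 and both mTEC4 lists had none.

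Thymus identity and cortical genes had mTEC1-only regions at 5 of 16 genes, where all genes gave 13.3%. They had mTEC4-only regions at 2, Eya1 and Kitl, where all genes gave 9.34%. Foxn1, the transcription factor that establishes TEC identity, had no region in either mTEC4 list, 1 in mTEC1 library 1 and 6 in mTEC1 library 2. The 1 shared region (chr11:78374125-78374746, 622 bp) lay inside the gene, 12172 bp from its start to the region's centre, had values of 3.02 and 3.10, and was called in all 4 embryonic lists and 1 mTEC2 list. With each list cut to its 20000 strongest peaks, Foxn1 still had 1 mTEC1-only region.

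The other 4 genes of that count were Dll4, Pax1, Il7 and Tbata. The Dll4 start region had −log10 q values of 3.45 and 3.59 and was called in all 6 other lists, while Dll4 regions as a whole numbered 4 and 2 in the mTEC4 lists and 3 and 2 in the mTEC1 lists. Tbata, expressed in thymic stroma, had 2 mTEC1-only regions, at 2.28 and 4.06 and at 2.14 and 1.68, both called in all 6 other lists. Il7, the cytokine that sustains thymocyte survival, had one at 2.11 and 2.16. Pax1, a transcription factor of the pharyngeal pouch, had one across its start at 1.503 and 2.34, which was lost at equal list length. Psmb11, the cortical proteasome subunit gene, had no specific region and numbered 0 and 1 against 1 and 2.

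Genes of the Aire stage had mTEC1-only regions at 3 of 15, where all genes gave 13.3%. They had an mTEC4-only region at 1, where all genes gave 9.34%: Ciita, the regulator of MHC class II genes (2.62 and 1.59). The class II genes H2-Ab1 and H2-Eb1 were among the 3. H2-Ab1 had regions at 4.60 and 3.90 and at 2.25 and 2.37, and numbered 0 and 2 in the mTEC4 lists against 3 and 4 in the mTEC1 lists. Aire had an mTEC1-only region 4924 bp outside its span at 2.11 and 1.79. Regions at Aire numbered 2 and 4 against 3 and 2, so the fractions overlapped, and the region across its start was called in both mTEC4 lists (1.48 and 1.62) and in mTEC1 library 2 (4.64). Trp63, the basal epithelial factor p63, had no specific region and numbered 1 and 4 against 4 and 11.

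T cell genes carried mTEC1-only regions together with the NF-kB and thymic genes. Cd28, the costimulatory receptor, had 0 and 0 regions in the mTEC4 lists and 2 and 3 in the mTEC1 lists, with mTEC1-only regions at 2.50 and 2.41 across a gene end and at 2.30 and 3.81. Rag1, the recombinase of antigen receptor genes, had 1 and 1 against 2 and 2, with an mTEC1-only region at 4.28 and 5.17 that neither E15 nor E17 lists called and both mTEC2 lists did. Bcl11b, a T lineage transcription factor, had 2 mTEC1-only regions and numbered 2 and 4 against 5 and 9. Cd3d and Cd3g, of the T cell receptor complex, shared 1 region at 1.67 and 5.84.

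The remaining genes of the 9 were Cd2, Cd4, Tcf7 and Themis, of which Themis, a T cell signalling gene, also had an mTEC4-only region (5.50 and 3.85). Summed over the 20 T cell genes, regions numbered 30 and 45 in the mTEC4 lists and 56 and 65 in the mTEC1 lists. More regions in each mTEC1 list than in either mTEC4 list were found at 8 of the 20 genes, where all genes gave 8.65%. The reverse was found at 0, where all genes gave 4.53%. Cd28 and Cd2 were at 0 in both mTEC4 lists, and no T cell gene was at 0 in both mTEC1 lists. Of all 21887 genes, 4786 and 3946 were at 0 in the mTEC4 lists and 4260 and 3897 in the mTEC1 lists, each list by itself. The share of all genes at 0 in both lists of a fraction is not given, so these counts have no background. The libraries are labelled as sorted TEC, and the part of T cells in the NF-kB, thymic or class II results was not tested.

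Markers of other cell types were counted in the same way, where all genes gave 9.34% for mTEC4-only and 13.3% for mTEC1-only regions. Dendritic cell and macrophage genes had mTEC4-only regions at 2 of 15 (Itgax, Xcr1) and mTEC1-only regions at 3 (Adgre1, Flt3, Xcr1). B cell genes had them at 1 of 8 each (Cd79a and Ebf1), endothelial genes at 2 (Tek, Cdh5) and 3 (Emcn, Flt1, Cdh5) of 10, and erythroid genes at 0 of 9 each. Mesenchymal genes had an mTEC4-only region at 1 of 12, Pdgfra, and mTEC1-only regions at 3, Col6a1, Dcn and Col1a1. The collagen gene Col6a1 had 2, at 2.23 and 2.19 beside its start and at 4.18 and 4.49. Housekeeping genes had an mTEC4-only region at 1 of 15, the elongation factor gene Eef1a1 (4.29 and 3.62).

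Pan-epithelial genes had regions of both kinds. mTEC4-only regions lay at 5 of 16 genes (31.25%), where all genes gave 9.34% and tuft genes 34.5%. mTEC1-only regions lay at 6 (37.5%), where all genes gave 13.3%. The mTEC4-only set was Rab25, Ehf, Grhl2, Krt18 and Cdh1. Rab25, an epithelial trafficking GTPase, had its region beside its start at 2.16 and 2.98, and Ehf, an epithelial ETS factor, had one at 2.06 and 3.43. Grhl2, a regulator of epithelial junctions, had one mTEC4-only (2.22 and 2.20) and one mTEC1-only region (1.65 and 1.29). Cdh1, which encodes E-cadherin, had 1 mTEC4-only and 2 mTEC1-only regions.

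Per library, regions at each list were scaled by the mean over all protein-coding genes of the same library. Tuft genes stood at 1.02 and 1.16 of that mean in the mTEC4 lists and 0.646 and 0.933 in the mTEC1 lists. NF-kB genes stood at 1.08 and 1.32 against 1.33 and 1.57, and T cell genes at 0.743 and 0.915 against 1.19 and 1.26. Ccl21a-programme genes stood at 0.578 and 0.78 against 0.887 and 1.13. Aire-stage genes overlapped, at 0.594 and 0.949 against 0.852 and 1.03, and thymus identity genes did too, at 0.867 and 0.966 against 0.772 and 1.38. Tuft genes were not alone in standing higher in both mTEC4 lists. Epithelial genes did so at 1.36 and 1.25 against 1.04 and 1.16, B cell genes at 1.18 and 0.966 against 0.852 and 0.87, erythroid genes at 0.605 and 0.542 against 0.378 and 0.515, and housekeeping genes at 1.39 and 1.33 against 1.25 and 1.06. The difference of the means was 0.305 for tuft genes, 0.269 for endothelial genes, whose groups overlapped, and 0.127 to 0.211 for these 4 lists.

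**Figure D5:**
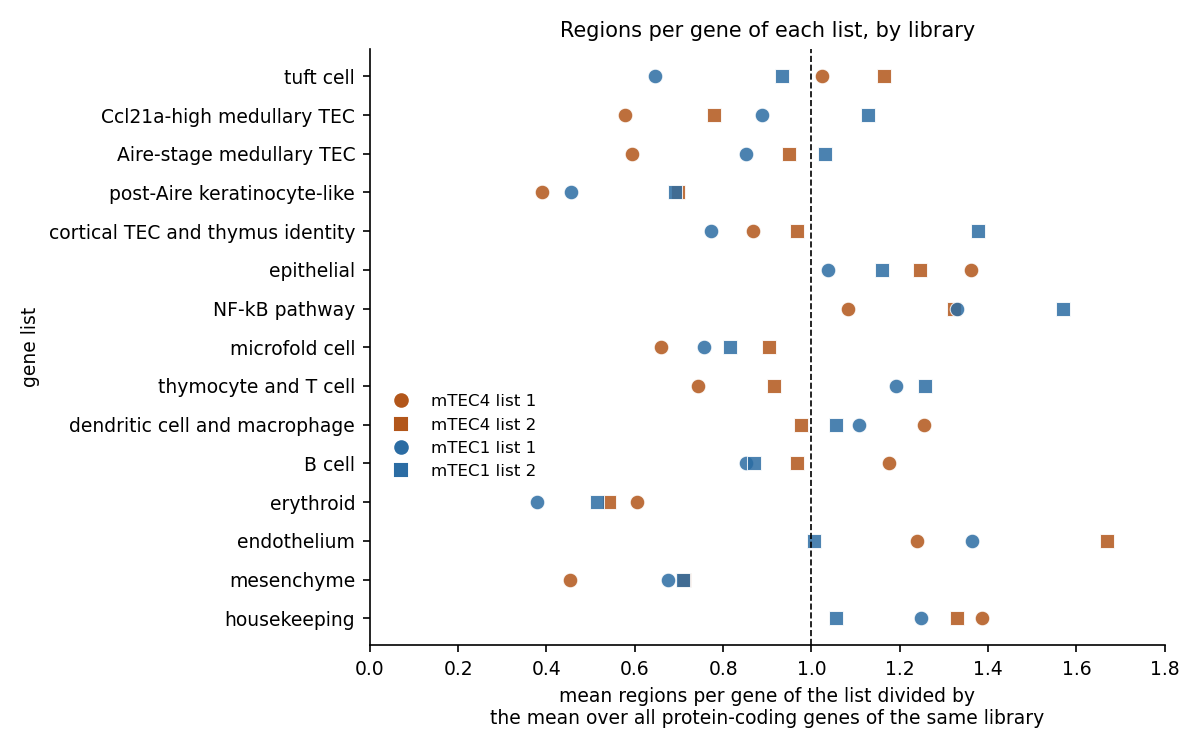
Mean number of merged regions per gene of each list (rows), divided by the mean over all protein-coding genes of the same library (horizontal axis; dashed line, 1). Orange points are the mTEC4 lists and blue the mTEC1 lists, circles library 1 and squares library 2. Tuft, epithelial, B cell, erythroid and housekeeping genes lie higher in both mTEC4 lists, and T cell, NF-kB and Ccl21a-programme genes higher in both mTEC1 lists, the NF-kB groups by a margin of 1.32 to 1.33.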

How the data were processed

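ATAC-seq was compared between 2 day 6 mTEC4 and 2 day 6 mTEC1 libraries, grouped by their titles. Each library has its own broad peak list from the authors, of nucleosome-free chromatin per the labels. The submitters' processing notes name cutadapt, Bowtie2, Picard and MACS2 with mm10. Tool versions and any shift of read ends for the transposase are not given in the sources used here. Each peak's fold enrichment (a ratio) and −log10 q were deposited as the authors' caller gave them. They belong to their own list and were used to rank or filter peaks within it. Lists were compared by presence of a peak, apart from the share of peaks at a −log10 q of 5 or more. Read depth is unknown, so no counting interval is given, and a site without a peak was not called, which does not show it closed.

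Peaks that overlapped by 1 bp or touched were merged (Python 3.11.15, pandas 2.3.3, numpy 2.4.6). Gene spans of 21887 protein-coding genes and 32817 promoter windows came from RefSeq tables of GRCm38.p6, and 216 of 217 listed symbols matched, 2 through older symbols. With 2 against 2 libraries the exact two-sided permutation test has 6 arrangements, cannot reach 0.05 and goes no lower than 0.333. The merging, the patterns, the counts in gene windows and the overlap measure were tested on simulated data, and the permutation test was not. Members and gene lists were chosen with earlier results of these data known. Named were 8 set genes, up to 15 list genes per direction, by their number of specific regions, and the 10 strongest regions of each fraction. Genes that complete a small count were named after their values were seen. Alternatives covered list length, peak strength, overlap, gene windows, autosomes and each library left out.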

Additional observations from a re-analysis of the deposited data

How the results depend on the processing

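Counts of fraction-specific regions stayed within 1.5 times their main value at equal list length by either column, with 50 bp overlap, with 100 bp gaps closed, merged over all 10 lists, and on autosomes. Stricter peaks lowered them: mTEC4-only regions numbered 757 with the 20000 strongest peaks per list, 913 with a −log10 q of at least 2 and 142 with at least 5, and mTEC1-only regions 1005, 2700 and 428. Leaving out a library loosens the definition, and gave 6331 to 38744 mTEC4-only and 7719 to 45441 mTEC1-only regions. The within-fraction minus between-fraction overlap ranged from −2.17 to 1.45 percentage points over the libraries left out, above 0 only without mTEC4 library 2, and was negative under every other alternative run. Among peaks with a −log10 q of 2 or more, the mTEC4 minus mTEC1 difference turned to 3.81 points for peaks near gene ends and 2.26 for strong peaks. Leaving out a library gave −2.36 to 2.32 and −3.94 to 2.11 for these. The cause was not tested. Labels number the libraries 1 and 2 in both fractions without saying what a number shares, so they were not taken as pairs. The correlation of same-numbered call differences was 0.0544 over 198925 regions. With a replicate block, the differences in library measures were −6136 peaks, −10.5 bp, −0.0169 and −0.914 points, equal to the main ones by construction.

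Tuft genes with an mTEC4-only region numbered 6 within spans alone (5.89% of all genes). They numbered 1 with a −log10 q of at least 2 (3.13% of all genes) and 0 with the 20000 strongest peaks (3.46%). Over the libraries left out they numbered 10 to 22, where 15.0% to 49.9% of all genes had one. With an mTEC1-only region they numbered 1 of 29 within spans (8.63% of all genes) and 11 with 50 kb on each side (30.1%). At 50 kb the tuft count was thus no longer below the share of all genes. Both stricter settings gave 0, where 9.15% (−log10 q of at least 2) and 4.19% (20000 strongest peaks) of all genes had one. A library left out gave 2 to 21 (16.9% to 54.3% of all genes). NF-kB genes with an mTEC1-only region numbered 4 within spans (8.63% of all genes), 4 at the −log10 q of at least 2 (9.15%), 1 with the 20000 strongest peaks (4.19%) and 7 to 14 with a library left out (16.9% to 54.3%). Under the last 3 settings, T cell genes numbered 6, 1 and 10 to 18 of 20. The difference in calls in the other lists was 31.9 points at equal length and −21.9 to 52.1 over the libraries left out. For gene counts, the stricter settings and the libraries left out were chosen after seeing the data, as were the libraries left out for calls in the other lists. At equal length, 59 of 60 counts at single named genes kept their value, and with a −log10 q of at least 2, 34 of the 60 fell to 0.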

Other observations

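Microfold cells and post-Aire keratinocyte-like cells are 2 further end states described for medullary TEC. Of all protein-coding genes, 13.3% had an mTEC1-only and 9.34% an mTEC4-only region. Microfold genes had mTEC1-only regions at 3 of 9 genes, Spib (a transcription factor of that lineage), Tnfaip2 and Marcksl1, and an mTEC4-only region at 1, the chemokine gene Ccl9. Tnfaip2 had 2 mTEC1-only regions, of which the one inside the gene (−log10 q of 1.79 and 2.12) was called in all 4 embryonic and both mTEC2 lists, and the one before its start (1.64 and 1.58) in none of the 6. Keratinocyte-like genes had mTEC1-only regions at 3 of 14, Pkp1, Krt80 and Cdsn, and an mTEC4-only region at 1, Pkp1, a desmosome gene. The Pkp1 regions were separate: the mTEC4-only one crossed the gene end of higher coordinate (2.32 and 2.49) and the mTEC1-only one lay inside the gene (1.65 and 2.27). Scaled to all genes of each library, keratinocyte-like genes overlapped between the fractions, at 0.389 and 0.697 in the mTEC4 lists and 0.456 and 0.69 in the mTEC1 lists.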
